A study of Mus musculus with 11 samples.

Results

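The aim was to describe genes of DNA break repair in gingival epithelium of mice with or without an earlier depletion of Langerhans cells. For this, 9 genes were followed in the RNA sequencing of langerin-DTR mice. They are Prkdc, Xrcc4, Xrcc5, Xrcc6, Lig4, Polq, Brca1, Brca2 and Atm, picked by name from a table of 55414 genes, of which 19170 have values. All 9 have values, and each averages 10 normalized counts or more. Male langerin-DTR mice, which carry the receptor for diphtheria toxin under the control of langerin, were injected with PBS (5 mice) or with diphtheria toxin (DT, 6 mice) at postnatal days 17, 24 and 31, and their epithelium was taken at 8 weeks of age. The study reports that Langerhans cells, once depleted, had returned to their normal frequencies by that age. The transgene is shared by both groups, so that the groups differ in the injected agent. Any cell that expresses langerin can be a target of the toxin. A normalized count is the number of reads of a gene in a mouse divided by that mouse's size factor. Behind it lie between 17509328 and 24325513 reads per mouse.

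A break in both strands of DNA can be rejoined directly or copied from the sister chromatid. In end joining, the Ku ring (Xrcc5 and Xrcc6) slides onto the broken ends and recruits the kinase DNA-PKcs (Prkdc), and the ligase Lig4 with its scaffold Xrcc4 seals the ends at any stage of the cell cycle. Homologous recombination, with Brca1 and Brca2, needs a copied chromosome and is therefore used in S and G2 phase, whereas the polymerase Polq joins resected ends at short stretches of matching bases. The kinase Atm signals the break to the rest of the cell. A stratified epithelium such as the gingiva renews itself from dividing basal keratinocytes, in which both kinds of repair operate.

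The tissue matched its label in keratinocyte markers, of which 10 of 10 were measured, with summed levels of 2530000 to 2620000 normalized counts after PBS and 2590000 to 2810000 after DT. Langerhans cell markers (6 of 6 measured) summed to 2330 to 4940 after PBS and 1790 to 3100 after DT, and Cd207, which encodes langerin, had 10.0 to 43.0 normalized counts after PBS and 15.8 to 21.6 after DT (log2 fold change -0.19, SE 0.30, limma adjusted p = 0.853, and 0.06 without PBS 5). Summed markers of other cells overlapped between the groups as well: T cells at 10.0 to 55.3 against 13.1 to 35.4 (5 of 6 measured), B cells at 9.72 to 58.3 against 10.1 to 25.2 (3 of 3), myeloid cells at 1040 to 3750 against 976 to 4020 (6 of 7), fibroblasts at 1250 to 1450 against 1110 to 1590 (6 of 6), endothelium at 54.6 to 95.0 against 45.3 to 118 (4 of 4), melanocytes at 7.04 to 13.6 against 6.88 to 17.2 (2 of 4), muscle at 8.20 to 46.2 against 8.75 to 29.0 (4 of 4) and red blood cells at 47.5 to 163 against 43.9 to 106 (2 of 2). The median log2 fold change within these lists was 0.09 for keratinocytes, -0.32 for Langerhans cells, -0.35 for T cells, -0.77 for B cells, 0.02 for myeloid cells, -0.45 for fibroblasts, 0.0 for endothelium and melanocytes, -0.29 for muscle and -0.24 for red blood cells. The part of other cells in the values below was not tested.

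The start regions of the repair genes differ in the short motifs they hold, and 4 of them are shown because their genes behave differently in the results that follow. Brca1 and Brca2 had the highest correlations with S phase genes from mouse to mouse, and the groups did not overlap for Polq. Xrcc6 holds the same E2F-type motif as Brca2, and its correlation with S phase genes was near 0 over the 11 mice. That correlation was 0.52 without PBS 3 and PBS 5, and the spread of Xrcc6 did not exceed counting error. The window of Brca1 holds no E2F-type motif. Whether the motifs bear on these correlations was not tested. The windows are the 250 bases before the RefSeq start in GRCm38.p6, printed 5′ to 3′ on the strand of the gene, with motif matches in capitals: chr11:101551956-101552205 on the minus strand, chr5:150522371-150522620 on the plus strand, chr16:37011536-37011785 on the plus strand and chr15:82016119-82016368 on the plus strand.
Brca1: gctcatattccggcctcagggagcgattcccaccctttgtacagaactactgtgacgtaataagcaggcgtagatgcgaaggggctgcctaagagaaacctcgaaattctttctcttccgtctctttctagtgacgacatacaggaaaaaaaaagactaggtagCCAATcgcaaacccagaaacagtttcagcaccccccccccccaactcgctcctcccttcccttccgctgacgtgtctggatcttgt
Brca2: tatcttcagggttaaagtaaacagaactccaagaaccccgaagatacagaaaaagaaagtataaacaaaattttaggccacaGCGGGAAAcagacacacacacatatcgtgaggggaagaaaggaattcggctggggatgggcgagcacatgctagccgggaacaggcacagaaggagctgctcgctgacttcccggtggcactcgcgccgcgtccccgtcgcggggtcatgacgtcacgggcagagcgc
Polq: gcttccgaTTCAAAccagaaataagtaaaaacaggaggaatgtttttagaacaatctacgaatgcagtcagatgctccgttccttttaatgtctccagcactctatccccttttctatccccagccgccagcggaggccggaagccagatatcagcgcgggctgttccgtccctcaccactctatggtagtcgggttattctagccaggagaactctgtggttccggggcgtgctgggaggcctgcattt
Xrcc6: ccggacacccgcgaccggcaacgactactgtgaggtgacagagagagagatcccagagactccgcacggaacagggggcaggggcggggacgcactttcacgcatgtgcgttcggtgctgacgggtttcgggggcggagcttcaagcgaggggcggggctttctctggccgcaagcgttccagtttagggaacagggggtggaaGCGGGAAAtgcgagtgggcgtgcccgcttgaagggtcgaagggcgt
Of the 9 genes, 8 had an entry among these RefSeq windows and Prkdc had none. Both strands were searched for E2F-type 8-mers (TTTCCCGC, TTTGGCGC, TTTCGCGC and TTTGCCGC), for the overlapping E2F form GGCGGGAA, for the cell cycle element CHR (TTTGAA) and for the CCAAT box (CCAAT). The letters TTTCCCGC were found in reverse in Brca2, 168 to 161 bases before the start, and in Xrcc6, 46 to 39 bases before it. An E2F-type 8-mer is present in 1.86% of all 32851 windows, as is GGCGGGAA, which no repair gene held. Polq held a CHR in reverse 242 to 237 bases before its start, against 16.0% of all windows. A CCAAT box, present in 33.8% of all windows, was found in Brca1, 86 to 82 bases before the start, and in reverse in Xrcc5 and Atm. The windows of Xrcc4 and Lig4 held none of these letters.

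Set per kilobase of the longest coding transcript, the levels of the repair genes spanned a wide range. This allows genes to be compared only where reads come from the whole of that transcript. Over the 11 mice, Xrcc5 stood highest at 253 ± 13.6 normalized counts per kilobase (mean ± SD, n = 11), followed by its partner Xrcc6 at 98.5 ± 5.99. Below the Ku genes came Xrcc4 at 62.9 ± 8.99, Lig4 at 40.8 ± 2.22, Atm at 36.0 ± 3.82 and Prkdc at 24.3 ± 4.59 normalized counts per kilobase. The genes of the replication-linked pathways were lowest, with Brca1 at 18 ± 4.17, Brca2 at 10.3 ± 2.47 and Polq at 7.31 ± 1.53. Neighbors in this order whose ranges of 1 SD overlapped were Lig4 and Atm, Prkdc and Brca1, and Brca2 and Polq.

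The 9 genes were chosen with the difference between DT and PBS in view, so that this difference is described here without a test. After DT, 6 of the 9 were lower on average and 3 were higher, with a median log2 fold change of -0.12 against -0.011 over all genes with values. Only Prkdc passed the threshold used for all genes (limma with Benjamini-Hochberg adjustment, adjusted p under 0.1). Of all genes, 0.558% passed it, 0.245% as lower and 0.313% as higher after DT. Of 107 genes called, 60 were higher, and 139 of 182 after a correction for transcript length and GC content. The transcript of Prkdc is 12.6 kb long. Among other genes with transcripts of at least 10 kb that average 50 normalized counts or more, 3.76% were called lower. In 2 of the 9, Prkdc and Polq, every DT mouse lay below every PBS mouse, against 0.883% of genes that average 10 normalized counts or more (2.11% do not overlap in either direction). In 6 of the 9 the log2 fold change was under 2 SE. The study describes the sequenced material as purified epithelial cells, and markers of other cells were measured in it. In such a mixed sample, fewer cells of a type and less RNA per cell cannot be told apart.

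**Figure D1:**
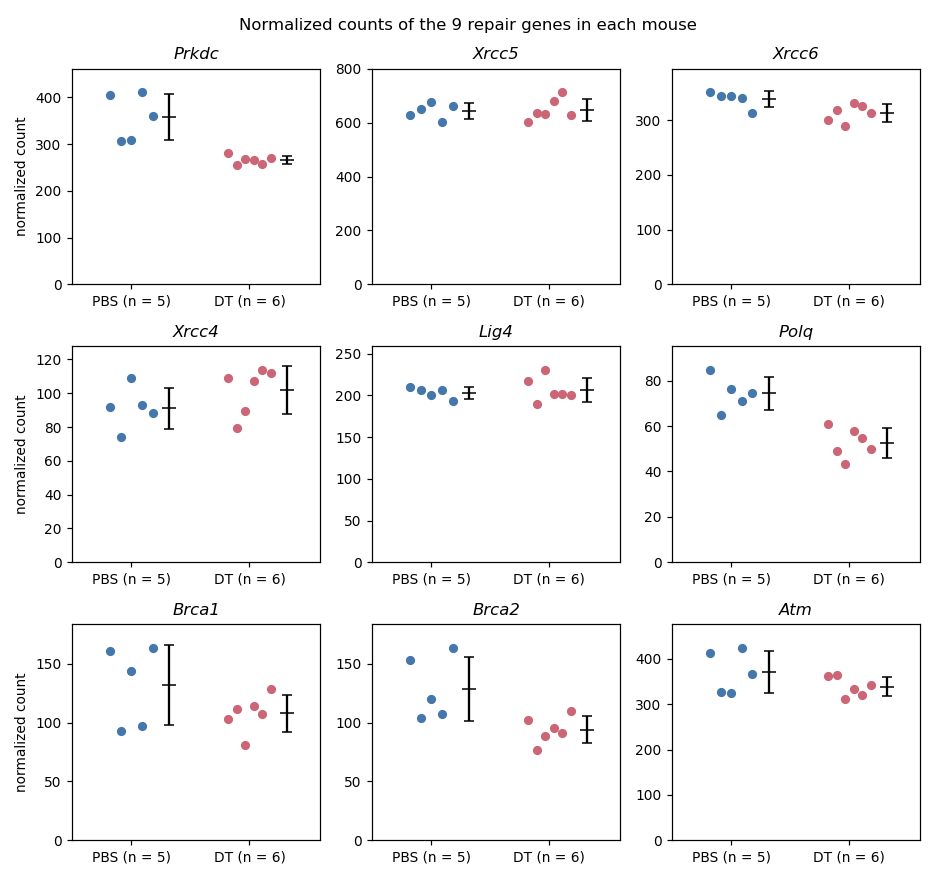
Normalized counts (y axis, from 0) of the 9 repair genes in each mouse, with PBS (5 mice) in blue and DT (6 mice) in red; black bars show the mean and SD. The groups do not overlap for Prkdc and Polq, and the 6 DT mice lie close together for Prkdc, at 255 to 281.

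Prkdc encodes the catalytic subunit of the DNA-dependent protein kinase, which holds the Ku-bound ends together. In PBS 1 to PBS 5 it stood at 404, 307, 309, 412 and 360 normalized counts, and after DT it had 255 at the lowest, 266 at the median and 281 at the highest. PBS 1 and PBS 4 were the highest mice, PBS 2 and PBS 3 the lowest of the PBS group, and no DT mouse reached them. The means were 358 ± 50 (SD, n = 5) and 266 ± 9.11 (SD, n = 6), a change of -25.1% and a log2 fold change of -0.42 (SE 0.084). The SD was 14% of the mean after PBS and 3.43% after DT, where counting error alone gives 5.35% and 6.09%. The spread of the PBS mice thus exceeded counting error, and that of the DT mice did not. Without PBS 1 and PBS 4 the log2 fold change was -0.29 and was not past the threshold. It was also lost on leaving out PBS 1 or any one of DT 2 to DT 6, with log2 fold changes of -0.47 to -0.37 over all 11 such fits.

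The differences of the Ku genes were smaller. Xrcc5, which encodes the larger Ku subunit, had 630, 652, 676, 601 and 661 normalized counts in the PBS mice and 601, 633 and 715 at the lowest, median and highest of the DT mice. The groups overlapped almost wholly, at 644 ± 29.2 (SD, n = 5) and 648 ± 41.6 (SD, n = 6), with a log2 fold change of 0.01 (SE 0.058). Xrcc6, which encodes the smaller subunit, had 352, 344, 344, 341 and 313 normalized counts after PBS and 290, 315 and 332 after DT. Here 4 PBS mice lay above every DT mouse and PBS 5 fell within the DT range. The log2 fold change of Xrcc6 was -0.11 (SE 0.062), with means of 339 ± 15.1 and 313 ± 15.6. The difference of Xrcc6 was smaller than 2 SE, and its spread within each group was that of counting error (SD 4.46% and 4.99% of the mean, against 5.47% and 5.61%).

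For both genes of the ligation step the groups overlapped, with log2 fold changes under 2 SE. Lig4, the ligase of end joining, had 210, 206, 200, 207 and 193 normalized counts after PBS and 190, 202 and 231 at the lowest, median and highest after DT (log2 fold change 0.02, SE 0.073). All 5 PBS mice lay inside the DT range. Xrcc4, the scaffold that stabilizes the ligase, had 91.7, 73.9, 109, 92.9 and 88.1 normalized counts after PBS and 79.4, 108 and 114 after DT (log2 fold change 0.16, SE 0.13). The highest PBS mouse, PBS 3, stood among the higher DT mice, and PBS 2 was the lowest of all. With 76 to 128 reads per mouse behind Xrcc4, counting error alone gives 10.6% of the mean after PBS.

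Polq encodes DNA polymerase theta, which drives alternative end joining. In PBS 1 to PBS 5 it stood at 84.9, 65.1, 76.4, 71.0 and 74.5 normalized counts, against 43.3, 52.4 and 60.8 at the lowest, median and highest of the DT mice. The groups were apart by a small step, from 60.8 in the highest DT mouse to 65.1 in PBS 2. The means were 74.4 ± 7.27 (SD, n = 5) and 52.6 ± 6.44 (SD, n = 6), and the log2 fold change of -0.49 (SE 0.13) was the lowest of the 9 genes. Polq rests on only 43 to 78 reads per mouse, and its spread within the groups (9.77% and 12.2% of the mean) did not exceed counting error (11.7% and 13.7%).

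The recombination genes varied the most among the PBS mice. Brca1, which promotes resection of the ends, had 161, 93.3, 144, 97.4 and 164 normalized counts in the PBS mice and 80.6, 110 and 129 at the lowest, median and highest of the DT mice. PBS 2 and PBS 4 were low and PBS 1, PBS 3 and PBS 5 were above every DT mouse, so that the groups overlapped through 2 PBS mice. The log2 fold change of Brca1 was -0.26 (SE 0.16), within 2 SE. Brca2, a mediator of strand exchange in recombination, had 153, 104, 120, 107 and 164 normalized counts after PBS and 76.9, 93.4 and 110 after DT, and 5 of 6 DT mice lay below the lowest PBS mouse. Its means were 129 ± 27.3 (SD, n = 5) and 94.1 ± 11.5 (SD, n = 6), with a log2 fold change of -0.44 (SE 0.14). The same mice, PBS 2 and PBS 4, were the lowest of the PBS group for both genes. The SD after PBS was 25.9% of the mean for Brca1 and 21.1% for Brca2, where counting error gives 8.93% and 8.94%.

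Atm, the kinase that senses breaks through the Mre11 complex, stood at 412, 327, 324, 425 and 367 normalized counts across PBS 1 to PBS 5, against 311, 337 and 364 at the lowest, median and highest after DT. PBS 1 and PBS 4 stood above all other mice, the same pair as for Prkdc. The means were 371 ± 47.0 (SD, n = 5) and 339 ± 21.9 (SD, n = 6), a log2 fold change of -0.12 (SE 0.083), which became 0.0 without PBS 1 and PBS 4.

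The median difference between DT and PBS varied with transcript length, in part through PBS 1 and PBS 4, and several repair genes are long. Over genes averaging 50 normalized counts or more, the repair genes left out, the median log2 fold change was 0.053 for 1482 genes with transcripts under 1.5 kb, 0.024 for 3588 genes of 1.5 to 3 kb, 0.008 for 4401 genes of 3 to 6 kb, -0.043 for 1285 genes of 6 to 10 kb and -0.148 for 266 genes of at least 10 kb. Without PBS 1 and PBS 4 the medians were -0.03 for transcripts under 1.5 kb, 0.019 for those of 6 to 10 kb and -0.067 for those of at least 10 kb, so that the sign of the shortest class and of the class of 6 to 10 kb turned and the longest class stayed below 0. Without PBS 4 alone they were 0.008, -0.012 and -0.105. In the fit of all mice, 10 of the 266 genes of at least 10 kb (3.76%) were called lower. The share called lower was 1.09% at 6 to 10 kb and 0.0836% to 0.202% in the shorter classes. Without PBS 1 and PBS 4 it was 1.5% at 10 kb or more. The transcripts of Prkdc (12.6 kb), Brca2 (10.7 kb), Atm (9.82 kb), Polq (8.55 kb) and Brca1 (6.57 kb) are the longest of the 9. When each mouse's dependence on transcript length and GC content was removed, the log2 fold change became -0.28 (SE 0.067) for Prkdc, -0.33 (SE 0.15) for Brca2, -0.42 (SE 0.13) for Polq, -0.21 (SE 0.17) for Brca1 and -0.02 (SE 0.062) for Atm. The groups of Prkdc and Polq still did not overlap. The shorter genes moved little under the correction, to 0.16 for Xrcc4, 0.06 for Lig4 and -0.10 for Xrcc6.

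**Figure D2:**
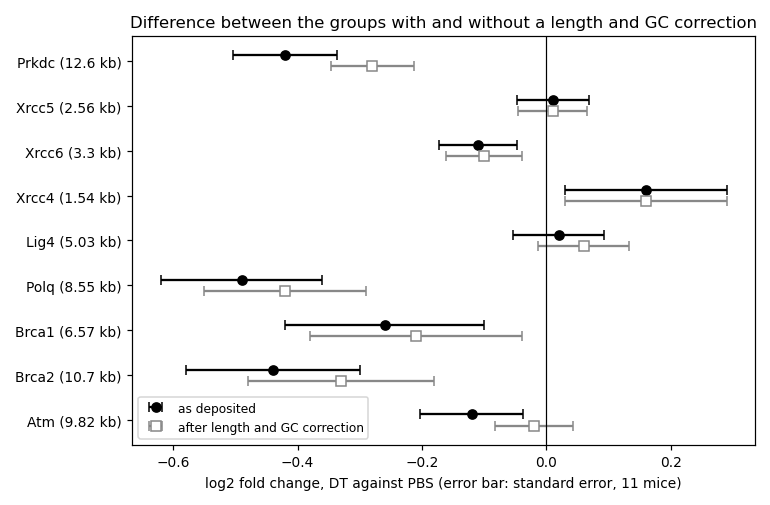
Log2 fold change of DT against PBS (x axis, bars show the standard error, 11 mice) for the 9 repair genes with their transcript length, from the deposited values (filled) and after a correction for length and GC content (open). Prkdc moves from -0.42 to -0.28 and Atm from -0.12 to -0.02, and Polq moves from -0.49 to -0.42.

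To see which repair genes vary together from mouse to mouse, deviations from the group mean were correlated over the 11 mice, which share the same libraries and scaling. Of 36 pairs, 25 had an r above 0, and the median was 0.17. The highest was Prkdc with Atm (r = 0.86), kinases of the same family, and next came Brca1 with Brca2 (r = 0.75). Prkdc and Atm also share long transcripts (12.6 and 9.82 kb) and were both highest in PBS 1 and PBS 4. The part of these mice and of transcript length in their r was not tested. Polq was closest to Xrcc4 (0.61) and Brca1 (0.59). Partners in a complex had a lower r, 0.38 for the Ku genes Xrcc5 and Xrcc6 and 0.0053 for Xrcc4 and Lig4. The SD of Lig4 was 3.35% of the mean after PBS and 6.91% after DT, where counting error gives 7.06% and 6.9%. The spread of Xrcc6 was likewise that of counting error. A low r with these genes therefore cannot tell whether the partners vary together. The lowest pairs joined Xrcc5 with Atm (-0.64) and with Prkdc (-0.57).

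**Figure D3:**
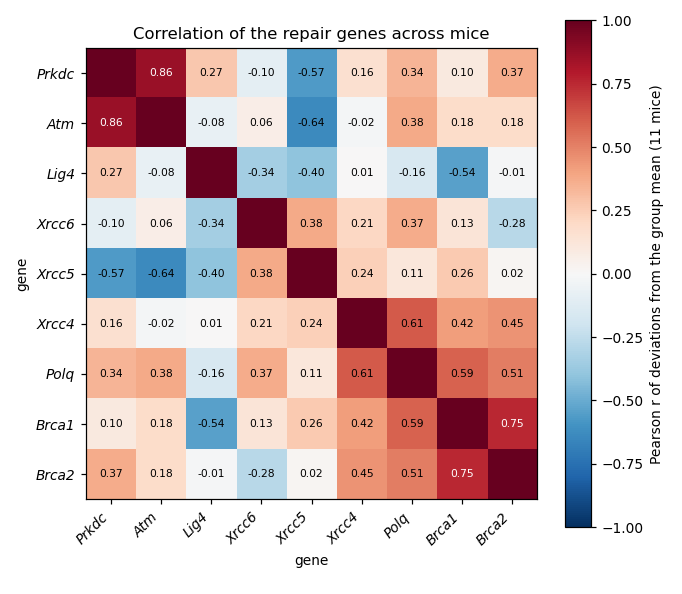
Pearson r between the repair genes (both axes), computed on deviations of log2 levels from the group mean over 11 mice; red is positive and blue negative. Prkdc and Atm (0.86) and Brca1 and Brca2 (0.75) form the most correlated pairs, and Xrcc5 runs opposite to Prkdc and Atm. Prkdc and Atm were both highest in PBS 1 and PBS 4.

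Since homologous recombination is used after DNA is copied, the levels were set against a score of 20 S phase genes (among them Pcna, Mcm2 and Rrm2) and a score of 22 G2 and M phase genes, each the mean of centered log2 levels, with the group mean removed from both measures. Brca1 followed the S phase score closely, with r = 0.95 (permutation p = 0.00066, adjusted over 18 relations p = 0.012) and rho = 0.92 (permutation p = 0.0016, adjusted p = 0.029), and r was 0.94 without PBS 3 and PBS 5, the mice farthest from the median score. The 3 PBS mice with high Brca1 had S phase scores of 0.216, 0.24 and 0.304, and PBS 2 and PBS 4 had -0.148 and -0.184, so that the PBS mice fell on both sides. Among the 6 DT mice alone, r was 0.87 (exact permutation test, p = 0.014, adjusted over 15 relations in these mice p = 0.21), and no r is given for the PBS mice alone, which are fewer than 6. The adjusted p of Brca1 rose to 0.0846 without PBS 5, 0.0783 without DT 3, 0.0504 without DT 4 and 0.0747 without DT 6, past the threshold of 0.05, with r at 0.93 to 0.95. Brca2 had r = 0.78 with the S phase score (permutation p = 0.034, adjusted p = 0.15; rho = 0.75) and r = 0.75 with the G2 and M phase score (permutation p = 0.016, adjusted p = 0.15), which did not pass the adjustment. Polq had an r of 0.52 with the S phase score (permutation p = 0.095, adjusted p = 0.34). The end joining kinase Prkdc (-0.032), Xrcc6 (0.026) and Atm (-0.037) showed r near 0 with the S phase score. Without PBS 3 and PBS 5 the r was 0.3 for Prkdc, 0.52 for Xrcc6 and 0.31 for Atm. The score itself averaged 0.0857 ± 0.232 in the PBS group (SD, n = 5) and -0.0714 ± 0.118 in the DT group (SD, n = 6), and its part in the lower Brca1 and Brca2 levels after DT was not tested.

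**Figure D4:**
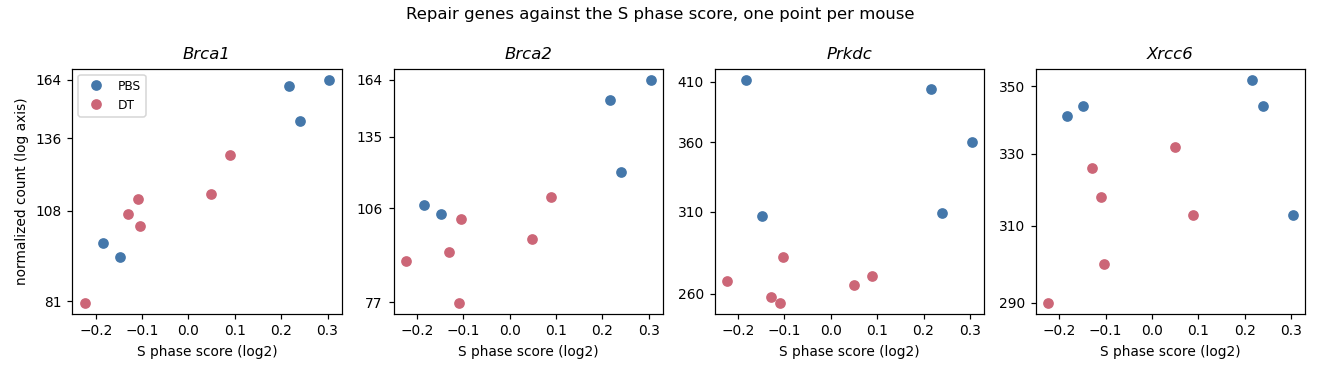
Normalized counts on a log axis (y) of Brca1, Brca2, Prkdc and Xrcc6 against the S phase score (x, mean of centered log2 levels of 20 genes) in each mouse, PBS in blue and DT in red. Brca1 is at 144 to 164 in the PBS mice with scores of 0.216 to 0.304 and at 93.3 and 97.4 in those with scores below 0, and every DT mouse lies below every PBS mouse for Prkdc.

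Because Prkdc and Atm were highest in the same PBS mice, levels were also set against the difference in level between long transcripts (at least 6 kb, 1738 genes) and short ones (1 to 2 kb, 2706 genes), a relation chosen after the data were seen. This difference was 0.16 in PBS 1 and 0.287 in PBS 4, and at most 0.007 in the other mice. Prkdc had r = 0.72 (permutation p = 0.14, adjusted over 9 relations p = 0.32; rho = 0.69) and Atm r = 0.73 (permutation p = 0.075, adjusted p = 0.32; rho = 0.76). Without PBS 1 and PBS 4, r was -0.21 for Prkdc and 0.034 for Atm, so that these relations rest on those mice. Xrcc5 ran the other way, with r = -0.70 (permutation p = 0.0013, adjusted p = 0.012) and rho = -0.76 (permutation p = 0.0011, adjusted p = 0.010), and kept r = -0.65 without both mice. The transcript of Xrcc5 is 2.56 kb long. How many genes outside the 9 have such an r was not counted, so that it cannot be called particular to Xrcc5.

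**Figure D5:**
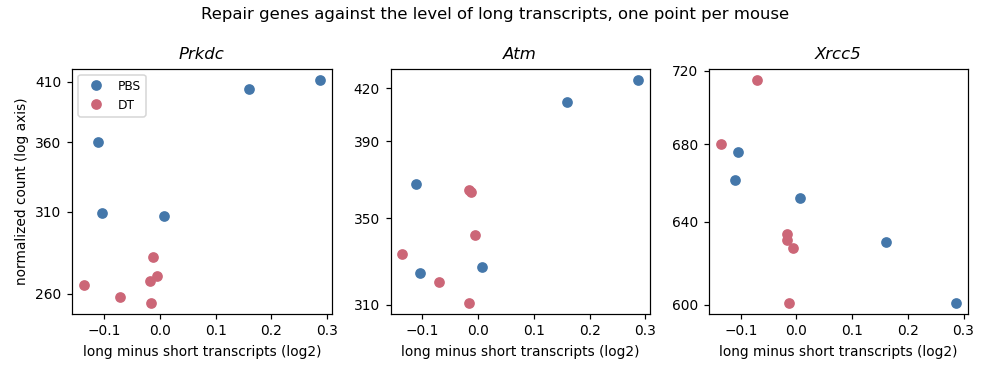
Normalized counts on a log axis (y) of Prkdc, Atm and Xrcc5 against the log2 level of long minus short transcripts (x) in each mouse, PBS in blue and DT in red. PBS 1 (0.16) and PBS 4 (0.287) lie far to the right, where Prkdc and Atm are highest and Xrcc5 is at 630 and 601.

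The genes whose deviations were most like those of Prkdc, among 13473 genes, were Cltc (r = 0.95), which encodes the clathrin heavy chain, Slc16a7 (0.929), Zfp808 (0.929), Erc1 (0.922) and Ahi1 (0.922), over 11 mice. For Brca1 they were Uhrf1 (0.962), Kntc1 (0.943), Pola1 (0.937), Cdca5 (0.931) and Ncapg2 (0.922), of which Uhrf1 and Pola1 are in the S phase score. For Xrcc6 they were Trmt1l (0.89), Ppp1cb (0.862), 4930447K03Rik (0.843), Pomt1 (0.841) and Ccpg1 (0.837). The spread of Xrcc6 did not exceed counting error, so that its order cannot tell which genes vary with it. Whether the top values exceed those that a search of 13473 genes gives without any relation was not tested. The 100th gene in these orders still had an r of 0.796 for Prkdc, 0.78 for Brca1 and 0.696 for Xrcc6.

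In 6 of the 9 repair genes, another gene starts on the opposite strand within 1000 bases and runs away from it, so that both share a start region. The starts lie 307 bases apart for Atm and Npat, a regulator of histone genes, 270 for Brca1 and Nbr1, 21 for Lig4 and Abhd13, 489 for Prkdc and Mcm4, a subunit of the replicative helicase, 154 for Xrcc4 and Tmem167, and 206 for Xrcc6 and Desi1. No neighbor passed the threshold in limma, and Npat alone had an unadjusted p under 0.05 (0.029). The log2 fold change was -0.20 (SE 0.095) for Mcm4 (limma adjusted p = 0.438) and -0.19 (SE 0.081) for Npat (limma adjusted p = 0.363), and lay between 0.03 and 0.05 for Nbr1, Abhd13, Tmem167 and Desi1. Mcm4 had 424, 321, 384, 305 and 371 normalized counts after PBS and 261 to 345 after DT. Thus its PBS mice were ordered unlike those of Prkdc, with PBS 4 lowest for Mcm4 and highest for Prkdc. The r of the pair Mcm4 and Prkdc was 0.053 (permutation p = 0.88, adjusted over 7 relations p = 0.89), while Mcm4 had r = 0.68 with the S phase score (permutation p = 0.056, adjusted p = 0.24). Npat and Atm had the highest r of the 6 pairs, 0.64 (permutation p = 0.069, adjusted p = 0.24), which was 0.42 without PBS 1 and PBS 4, and the other pairs had an r of -0.39 to -0.082.

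Of 112 further genes in 4 lists of break repair, 0 were called by limma, where 0.558% of all genes were called, and 13 (11.6%) had an unadjusted p under 0.05, against 11.5% of all genes. Of the other end joining genes (14 of 15 measured, Dntt not among them), 8 lay below 0 and 6 above, with a median log2 fold change of -0.02. The smallest p-values there belonged to Polm, a gap-filling polymerase (log2 fold change -0.22, SE 0.095, limma adjusted p = 0.383), the flap nuclease gene Fen1 (-0.19, adjusted p = 0.549) and Aplf, a Ku-binding scaffold (0.12, adjusted p = 0.549). The 37 other recombination genes had a median of -0.10, with 25 below 0 and 12 above. Rad54l, which encodes a motor protein of recombination, had a log2 fold change of -0.44 (SE 0.16, limma adjusted p = 0.283) and Nbn, of the Mre11 complex, 0.19 (adjusted p = 0.322). In the 40 genes of break signaling the median was -0.01, with 22 below 0 and 18 above. Smg1, a kinase of the Prkdc and Atm family, had -0.27 (SE 0.075, limma adjusted p = 0.196) and -0.10 after the correction for length and GC content, Clspn, an adaptor of checkpoint kinase activation, -0.46 (adjusted p = 0.224) and Timeless, which protects replication forks, -0.37 (adjusted p = 0.288). The 21 genes of the Fanconi anemia pathway, which repairs crosslinks, had a median of -0.04, with Brip1 at -0.27 (limma adjusted p = 0.361), Fanca at -0.28 (adjusted p = 0.428) and Fancd2 at -0.32 (adjusted p = 0.458). Unadjusted p-values under 0.05 were found for 0 genes higher and 1 lower in end joining, 2 and 2 in recombination, 2 and 4 in break signaling, and 0 and 2 in the Fanconi pathway. Of the S phase list, 18 of 20 genes lay below 0 with a median of -0.16, and of the G2 and M phase list 18 of 22 with a median of -0.08. None passed the threshold in limma. An unadjusted p under 0.05 was found for 0 genes higher and 3 lower in the S phase list. In the G2 and M phase list it was found for 1 higher and 2 lower. Over all genes the median log2 fold change was -0.011, and the share below 0 was not counted. Both scores overlapped between the groups. The S phase score lay at -0.184 to 0.304 after PBS and -0.224 to 0.0895 after DT. The G2 and M phase score lay at -0.121 to 0.15 and -0.117 to 0.212. The proliferation markers Mki67 and Top2a had log2 fold changes of -0.31 (SE 0.084, limma adjusted p = 0.18) and -0.16 (adjusted p = 0.491).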

How the data were processed

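Stranded libraries of polyA RNA were sequenced from gingival epithelium, 1 per mouse, for 5 mice given PBS and 6 given DT. The reporting summary of the study names a KAPA stranded mRNA kit, whereas its methods process the reads by the guide for QuantSeq. The deposited values are normalized counts per gene, made by the authors by trimming and filtering reads, aligning them with TopHat2, counting them with HTSeq and dividing each mouse's counts by its DESeq2 size factor, with genes under a summed count of 10 left out. The submitters' processing notes, per the labels, list for the authors' work cutadapt 2.10, TopHat2 2.1.1, HTSeq 2.01, DESeq2 1.36.0 and the build GRCm39, whereas the study's methods name GRCm38 and other versions. For this reason no gene positions are given, apart from RefSeq start windows on GRCm38.p6. In the library names, the mouse labelled PBS 5 carries another number than in its title, and its column was taken by its description. No column of per-sample values was left unused.

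The 9 genes and all gene lists were chosen with earlier results of these data known. Values were analysed as log2(normalized count + 1) with limma 3.58.1 (R 4.3.3, intensity trend, no covariate), and p-values were adjusted by Benjamini and Hochberg's method over 19170 genes and called below 0.1. Fold changes are on this log2 scale. All values in each mouse were whole multiples, within a tolerance of 0.05, of the value of 1 read (0.845 to 1.15 normalized counts), which gave the read totals. Counting error was taken from these reads and covers counting only. Transcript lengths and GC content come from the longest coding transcript in GENCODE M21, which matched 19117 genes (99.7%), and the correction removed a loess curve (span 0.3) on both from each mouse. Neighbors were found in the same annotation. Correlations used deviations from group means with 100000 two-sided permutations of mice within groups. The fit was tested on simulated data with known changes.

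Named genes were the 9 genes, their divergent neighbors, Mki67, Top2a and Cd207, the genes past the threshold and the 3 others with the smallest unadjusted p in each repair list (mean of at least 10), and the 5 genes most like Prkdc, Brca1 and Xrcc6. A recombination gene that this rule names is not reported here. Each mouse was taken as a replicate. The study's reporting summary says that transgenic mice were housed together, and the sources used here do not tie a mouse to a litter, cage or batch. Alternatives were other pseudocounts, scalings, filters, weights, corrections, blocks and mice left out.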

Additional observations from a re-analysis of the deposited data

Results flagged for a closer look

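A single value stood out. Xrcc6 in PBS 5, at 313 normalized counts, was separate from the remaining 4 PBS mice, at 341 to 352, and its gap to the nearest of them was 0.711 of the range of the 5 mice. Of 18 groups examined (9 genes in 2 treatments), 1 was picked out in this way, and chance picks out about 1 in 20.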

How the results depend on the processing

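Of the 107 genes called over the whole table, the number changed with most settings. It was 189 with array weights, 182 with the correction for length and GC content (139 higher, against 60 of 107) and 234 without PBS 1 and PBS 4, an alternative chosen after seeing the data. Leaving out 1 mouse gave 27 to 259 genes, with 61 without DT 1, 52 without DT 3, 50 without DT 4, 27 without DT 5, 30 without DT 6, 29 without PBS 1, 40 without PBS 2, 170 without PBS 4 and 259 without PBS 5. Samples of the same number correlated at an r of -0.233 to 0.324, and only title number 5 correlated best with its own. Such correlations between single mice cannot show whether the numbers pair the mice by litter, cage or batch. A replicate block by title number gave 35 genes, the block with the length and GC correction 36, and a block by library number 0 (1404 genes at an unadjusted p under 0.05). Prkdc was past the threshold with other pseudocounts, scalings, filters, weights and the length and GC correction, and not with any block. None of the genes in the 4 repair lists and no neighbor was called under any setting. Relations with the proliferation scores past the adjustment numbered 1, and 2 where group means were not removed (Brca2 with the S phase score, r = 0.80, permutation adjusted p = 0.0194), and 0 to 1 with 1 mouse left out. Turned in sign were Nbr1 (-0.01) and Cd207 (0.06) without PBS 5 (-0.01 to 0.07 and -0.44 to 0.06 over all mice left out in turn) and Desi1 (-0.02) without PBS 1 and PBS 4. Xrcc5, at 0.01, and Lig4, at 0.02, had no stable sign either: Xrcc5 was at -0.04 without PBS 1 and PBS 4, -0.02 with the library number block and without DT 5 or PBS 4, and -0.01 with quantile normalization and without DT 4, and Lig4 was at -0.01 without DT 3. The causes were not tested. The planned tests on counts with edgeR and DESeq2 were left out, since the values were handled as normalized rather than raw. Depth limits Polq and Xrcc4 most, at 43 to 78 and 76 to 128 reads per mouse.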
